A study of Mus musculus with 12 samples.

Results

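The receptors described here are 8 chemokine receptors that steer T cells within and between tissues: Cxcr3, Cxcr4, Cxcr5, Cxcr6, Ccr2, Ccr4, Ccr6 and Ccr7. They were taken by gene symbol from the deposited tables, where each symbol had 1 entry in the counts and 1 in the FPKM values, out of 25793 genes in the counts. RNA was sequenced from follicular helper T (Tfh) cells of wild-type (WT) and Pdcd1 knock-in (KI) genotype, and the series concerns how PD-1, the inhibitory receptor encoded by Pdcd1, regulates where Tfh cells sit and what they do. The sets of values compared below are KI against WT, Cxcr3 against Cxcr5 within a library, and libraries carrying 1 or 2 as the first number of their title.

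The WT group held 6 libraries of Pdcd1+/+ cells and the KI group 6 libraries of Pdcd1KI/KI cells, all on the C57BL/6 strain. Both groups were CD4+ OT-II T cells, whose T cell receptor recognises an ovalbumin peptide, and both had been transduced with GFP. They were transferred into B6 hosts along with MD4 B cells, which carry a receptor for hen egg lysozyme and here also dsRed. Hosts received the joined antigen HEL-OVA under the skin with LPS and alum as adjuvants, and cells positive for GFP and high for CXCR5 were sorted from lymph nodes on day 5. The hosts kept their own lymphocytes, pools of 100 to 200 cells went directly into lysis buffer, and RNA was amplified by a modified single-cell method. The labels do not state what the KI allele changes, the age of the animals, or whether libraries of a group came from separate mice. The p-values therefore measure the spread between these libraries, which may be technical. Titles carry 2 unexplained numbers, and each first number covers 3 WT and 3 KI libraries. Libraries are named by genotype and both numbers.

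Chemokine receptors are G protein-coupled receptors that turn a gradient of chemokine into directed movement through Gi proteins, Rac and Rap GTPases. In a lymph node CCR7 responds to CCL19 and CCL21 in the T cell zone, and CXCR5 responds to CXCL13 in the B cell follicle, so that helper T cells which lose CCR7 and gain CXCR5 move to the follicle. CXCR3 binds CXCL9, CXCL10 and CXCL11, which interferon induces, and is typical of type 1 helper cells. CXCR6 binds CXCL16, CXCR4 binds CXCL12, CCR2 binds CCL2 and related chemokines, CCR4 binds CCL17 and CCL22, and CCR6 binds CCL20.

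Total gene counts ran from 717506 in WT 1-3 to 1801504 in KI 2-2, and WT 1-3 also had the lowest share of reads assigned to genes, 46.1% against up to 60.2%. Pdcd1 stood at 435, 523, 260, 166, 198 and 172 CPM (counts scaled to a common library total, with TMM factors) in WT 1-1 to WT 2-3, and at 111, 130, 94.1, 39.9, 24.4 and 21.5 CPM in KI 1-1 to KI 2-3. The lowest WT value exceeded the highest KI value, a separation in this direction that 0.146% of tested genes showed. The log2 fold change of Pdcd1 was -2.05 (SE 0.42), with an adjusted p of 0.231 from edgeR's quasi-likelihood test. Summed markers of T and Tfh cells ran from 5920 to 8901 CPM, those of B cells from 117 to 343 CPM, of CD8 and NK cells from 48.4 to 484 CPM, of myeloid and dendritic cells from 1.24 to 225 CPM (highest in WT 1-3), and of regulatory T cells from 227 to 524 CPM. The most abundant were Lck (1625 CPM) and Cd3g (1336 CPM) of the T cell list and Tnfrsf18 (138 CPM) and Nrp1 (134 CPM) of the regulatory list, whose Foxp3 had 4 counts, all in 1 library. With both first numbers pooled, these sums overlapped between the genotypes in all 5 lists. Within first number 1 they did not overlap in 1 of 5 lists, T and Tfh cells (5920 to 6334 CPM in KI, 7017 to 7339 CPM in WT). Within first number 2 they did not overlap in 2 of 5, B cells (179 to 243 CPM in KI, 255 to 343 CPM in WT) and myeloid cells (36.2 to 51.9 CPM in KI, 2.25 to 20.7 CPM in WT). The B cell marker Pax5, the NK markers Ncr1, Klra4 and Klra8, the regulatory T cell marker Lrrc32, and Itgax, Fcgr1, Zbtb46 and Cd14 of the myeloid list had 0 counts in every library.

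Levels of the 8 receptors were first set against each other in FPKM, the authors' unit that divides by transcript length. Cxcr5, Cxcr3 and Ccr7 made up nearly all of the measured receptor RNA, Cxcr6 stood well below them, and Cxcr4, Ccr2, Ccr6 and Ccr4 had the lowest means. Over the 12 libraries the mean was 167 ± 51.2 FPKM for Cxcr5, 126 ± 60.4 FPKM for Cxcr3 and 80.1 ± 19.2 FPKM for Ccr7 (SD, n = 12), and Cxcr6 averaged 12.9 FPKM, with libraries from 0.233 to 46.8. The other means were 1.13 FPKM for Ccr2, 1.00 FPKM for Cxcr4, 0.476 FPKM for Ccr6 and 0.202 FPKM for Ccr4. The cells had been sorted on CXCR5 protein, so the place of Cxcr5 at the top is no finding about T cells at large.

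Ordered by mean log2(FPKM + 1), the receptors ran Cxcr5, Cxcr3, Ccr7, Cxcr6, Cxcr4, Ccr2, Ccr6 and Ccr4. Neighbours in this order were compared within libraries by two-sided exact sign-flip permutation tests on that scale, adjusted by Benjamini-Hochberg over the 7 pairs, and 3 of 7 differed. The order came from these same values, which fixed the pairs and the direction of each mean step over the 12 libraries. The tests are therefore no independent evidence for the order. Cxcr3 exceeded Ccr7 in 9 of 12 libraries by 0.51 ± 0.62 (SD, adjusted permutation p 0.0365). This step lay mostly in KI, at 0.92 and in 6 of 6 libraries. In WT it was 0.10 ± 0.51 and held in 3 of 6 libraries (adjusted permutation p 0.938), so WT alone did not show this order. Ccr7 exceeded Cxcr6 in 12 of 12 libraries by 2.97 ± 1.34 (adjusted permutation p 0.0034). Cxcr6 exceeded Cxcr4 in 11 of 12 libraries by 2.44 ± 1.37 (adjusted permutation p 0.0034). The step from Cxcr5 to Cxcr3 was 0.52 ± 0.82, held in 7 of 12 libraries and did not pass (adjusted permutation p 0.106). In WT this step was 1.10 ± 0.76 and held in 5 of 6 libraries. In KI it was -0.06 ± 0.30 and held in 2 of 6, so KI alone did not show this order. Steps among Cxcr4, Ccr2, Ccr6 and Ccr4 did not pass either, with adjusted permutation p from 0.292 to 0.633. Within 1 genotype the 6 libraries cannot give a p below 0.03125, and 0 of 7 steps passed in WT alone or in KI alone after adjustment.

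**Figure D1:**
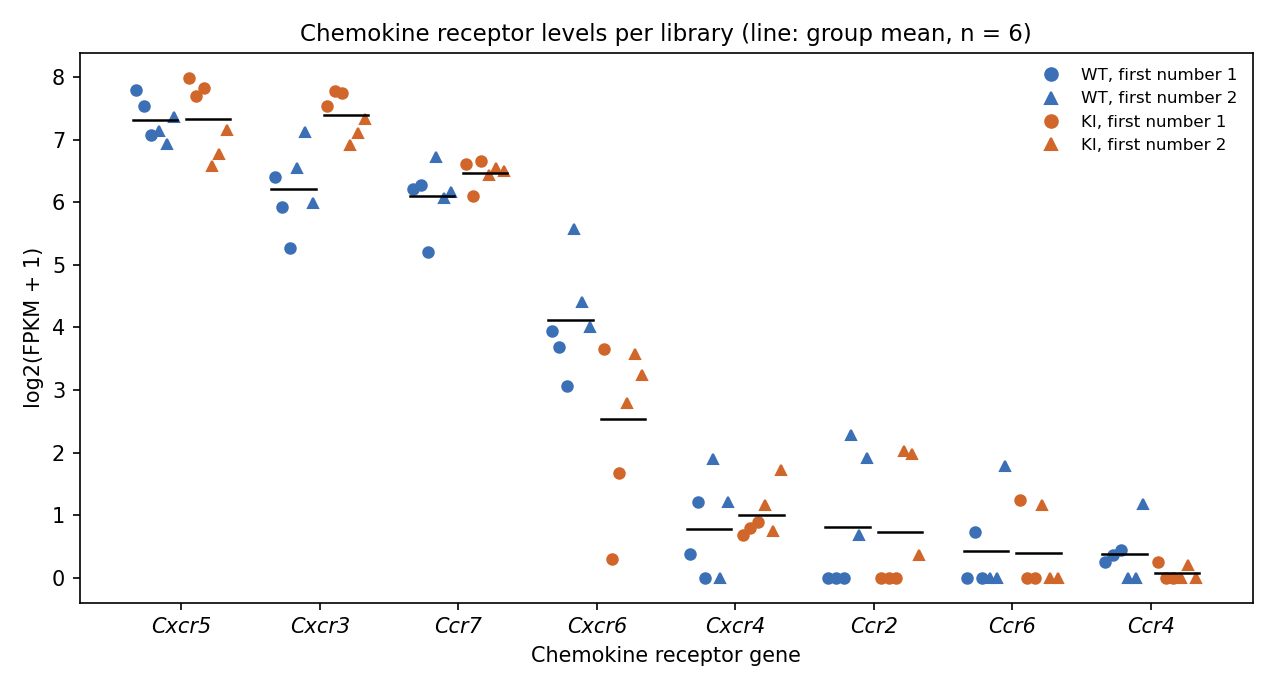
Levels of the 8 receptors as log2(FPKM + 1) on the vertical axis, 1 point per library, with WT in blue, KI in orange, circles for first number 1, triangles for first number 2 and a line at each group mean (n = 6). Cxcr5, Cxcr3 and Ccr7 average 7.33, 6.81 and 6.29, Cxcr6 averages 3.33, and the last 4 genes average 0.89 or less.

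As a share of the summed FPKM of all 8 receptors, Cxcr5 took 49.3% ± 11.4 in WT and 37.7% ± 6.49 in KI, while Cxcr3 took 23.3% ± 8.53 in WT and 39.0% ± 3.37 in KI (SD, n = 6). Ccr7 held 21.0% ± 3.64 in WT and 21.0% ± 5.31 in KI. The Cxcr6 share was 5.51% ± 3.28 in WT and 1.61% ± 1.16 in KI. In bulk RNA a lower value from fewer cells of a type and one from less RNA per cell cannot be told apart, which holds for every level given here.

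For the comparison of KI with WT, edgeR's filter on low counts kept 7542 genes, among them Cxcr5, Ccr7, Cxcr3 and Cxcr6. The tests called a gene changed at a Benjamini-Hochberg adjusted p under 0.05 over all of them. None of these 4 receptors passed (0 of 4), against 0.0265% of all tested genes, which is 2 genes. At an unadjusted edgeR p under 0.05 there were 407 genes (5.4%), and 2 of the 4 receptors, Cxcr3 and Cxcr6, were among them. The receptors' median log2 fold change was 0.16, beside 0.02 over all tested genes, with 3 of 4 higher in KI.

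Cxcr5, the follicle-homing receptor used in the sort, lies at chr9:44319871-44334504 on the minus strand (mm9, GENCODE vM1, protein coding). Its levels in WT 1-1 to WT 2-3 were 749, 728, 641, 479, 409 and 553 CPM, and in KI 1-1 to KI 2-3 they were 780, 770, 801, 428, 340 and 507 CPM. The genotypes overlapped, and both held 3 high and 3 low libraries that followed the first number. The KI to WT difference was 0.03 on the log2 scale (SE 0.23, 95% interval -0.45 to 0.51, edgeR adjusted p 0.993). Its sign turned under several alternatives, with values from -0.17 to 0.15. Cells of both genotypes had been sorted as high for CXCR5 protein, so this likeness holds for the sorted cells only.

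Set apart by first number instead, Cxcr5 was the 1 tested receptor of 4 that passed. The 6 libraries of first number 1 ran from 641 to 801 CPM with a mean of 745 ± 56.8, and the 6 of first number 2 from 340 to 553 CPM with a mean of 453 ± 76.0 (SD, n = 6). No library of first number 2 reached the lowest of first number 1, a separation in that direction seen for 3.51% of tested genes. The log2 fold change of number 2 against 1 in the fit with genotype was -0.72 (SE 0.15, 95% interval -1.02 to -0.42), with an edgeR adjusted p of 0.0021. Calls in this comparison were common: 16% of tested genes passed, 8.47% higher and 7.54% lower at number 2, so a call among 4 receptors is near that background. Within WT alone, where 5.01% of genes passed, the Cxcr5 value was -0.58 (edgeR adjusted p 0.101). Within KI alone, where 4.66% passed, it was -0.88 (edgeR adjusted p 0.0311). Summed CD8 and NK markers moved the other way, at 48.4 to 195 CPM in the libraries of number 1 and 219 to 484 CPM in those of number 2, without overlap. Most of this sum was 1 gene, Nkg7, which averaged 78.8 CPM at number 1 and 328 CPM at number 2. Within KI, 4 of 5 marker lists did not overlap between the first numbers, with T and Tfh, CD8 and NK, myeloid and regulatory T cell sums all higher at number 2. Within WT this held for 2 of 5, B cells and CD8 and NK cells. Their part in the difference was not tested.

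Inside first number 1 the 3 KI libraries of Cxcr5 (770 to 801 CPM) lay above the 3 WT libraries (641 to 749 CPM), which 7.81% of tested genes also did. The log2 difference there was 0.14 (SE 0.18, edgeR adjusted p 0.870), and inside first number 2, where the genotypes overlapped, it was -0.17 (SE 0.23, edgeR adjusted p 0.974).

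Ccr7, which holds T cells in the T cell zone, lies at chr11:99005510-99016391 on the minus strand. In WT 1-1 to WT 2-3 it was measured at 186, 225, 127, 267, 167 and 178 CPM, and in KI 1-1 to KI 2-3 at 224, 189, 266, 283, 218 and 237 CPM. One KI library, KI 2-1, lay above all WT libraries, and the groups otherwise overlapped. The WT mean of 192 ± 48.7 CPM and the KI mean of 236 ± 34.0 CPM (SD, n = 6) gave a log2 difference of 0.30 (SE 0.20, 95% interval -0.13 to 0.72, edgeR adjusted p 0.938). Both first numbers gave a positive difference of like size, 0.32 (SE 0.27) at number 1 and 0.27 (SE 0.25) at number 2. Between the first numbers Ccr7 differed by 0.15 (SE 0.18, edgeR adjusted p 0.617).

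Cxcr3, the type 1 helper cell receptor, lies at chrX:98926874-98929608 on the minus strand. WT 1-1 to WT 2-3 held 173, 142, 107, 191, 286 and 128 CPM, and KI 1-1 to KI 2-3 held 344, 491, 455, 325, 260 and 343 CPM. Of the KI libraries, 5 of 6 lay above every WT library; KI 2-2 fell below WT 2-2, the highest of the WT group. KI averaged 2.15-fold the WT level in the fit, a log2 difference of 1.10 (SE 0.24, 95% interval 0.61 to 1.60). The unadjusted edgeR p was 1.5e-04 and the edgeR adjusted p was 0.231, so Cxcr3 did not pass over all genes. With DESeq2, which called 0.147% of its tested genes, Cxcr3 had a log2 difference of 1.09 and passed (DESeq2 adjusted p 0.0244).

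The genotype difference of Cxcr3 was also taken at each first number. At number 1, WT averaged 141 ± 32.8 CPM and KI averaged 430 ± 77.0 CPM (SD, n = 3), with all KI above all WT libraries, as for 7.81% of tested genes. The summed T and Tfh markers were lower in all KI than in all WT libraries of number 1, and their part was not tested. At number 2, WT averaged 202 ± 79.6 CPM and KI averaged 310 ± 43.8 CPM (SD, n = 3), and the groups overlapped. The log2 differences were 1.59 (SE 0.25, edgeR adjusted p 0.0467, where 0.0403% of genes passed) and 0.62 (SE 0.28, edgeR adjusted p 0.913, where 0.0126% passed). The test of the difference between them gave -0.99 (SE 0.38) with an unadjusted edgeR p of 0.0160 and an edgeR adjusted p of 0.547, which did not pass. In that interaction test 0% of genes passed, 544 had an unadjusted edgeR p under 0.05, and DESeq2 called 7. Leaving out WT 1-1 gave 24 calls and leaving out WT 1-3 gave 1. Averaged over genotypes, Cxcr3 differed between first numbers by 0.01 (SE 0.21, edgeR adjusted p 0.989), made of 0.48 in WT and -0.47 in KI.

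**Figure D2:**
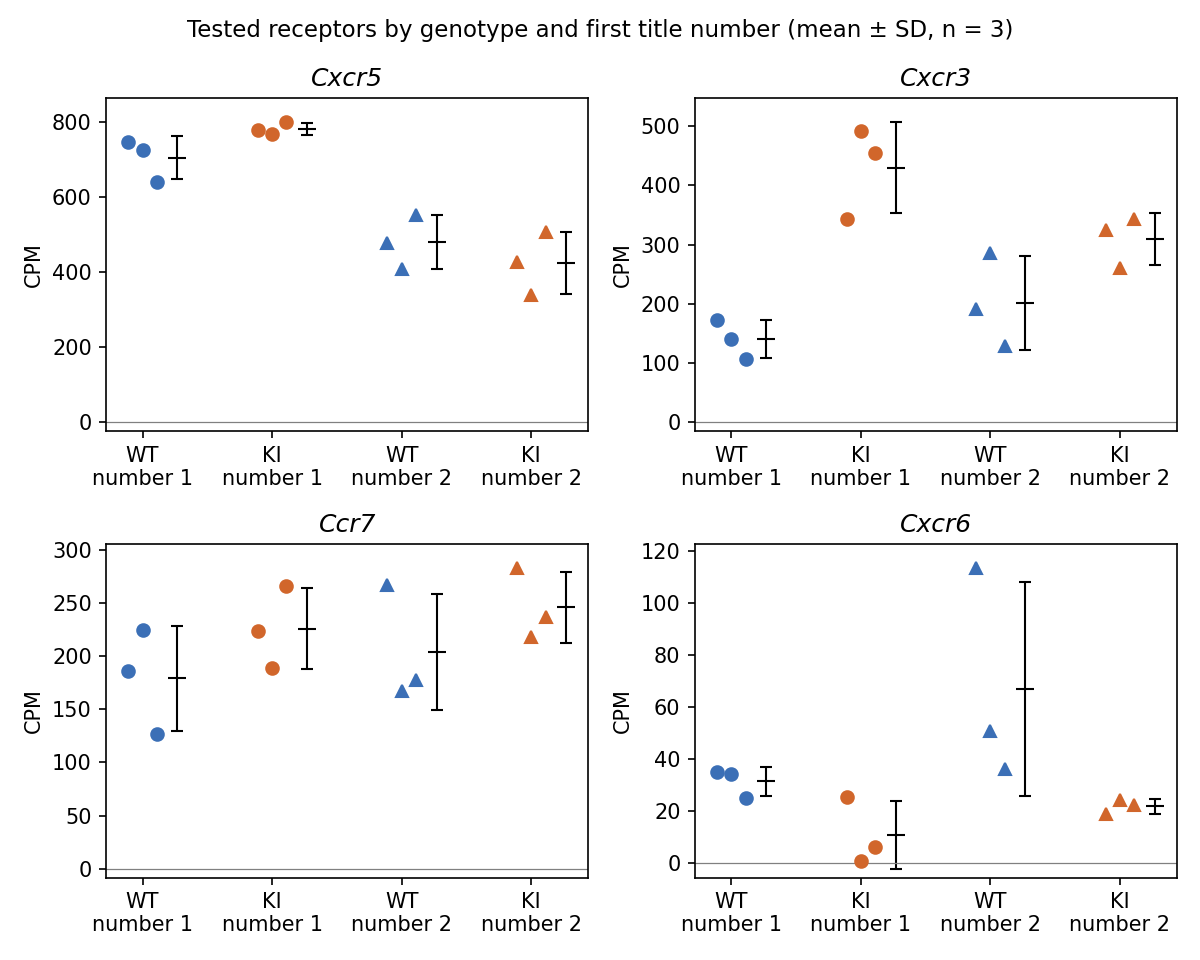
CPM of Cxcr5, Cxcr3, Ccr7 and Cxcr6 on the vertical axis for WT and KI libraries of first number 1 and 2, with 1 point per library and a bar at the mean ± SD (n = 3). Cxcr5 separates by first number between 553 and 641 CPM, Cxcr3 separates by genotype at first number 1, and Cxcr6 is lower in KI than in WT at first number 2.

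Markers of B cells, which form pairs with Tfh cells, were set beside the genotype difference. Of 6 tested B cell markers, 0 passed in edgeR and 1, Ms4a1, in DESeq2, which called 0.147% of its tested genes. In KI 5 were lower, and the median log2 fold change was -1.29, beside 0.02 over all tested genes. An unadjusted edgeR p under 0.05 was found for 3 of 6, beside 5.4% of all tested genes. Ms4a1 had a log2 fold change of -2.04 and an edgeR adjusted p of 0.487. The most abundant were Cd22, with a WT mean of 99.1 ± 56.0 CPM and a KI mean of 147 ± 35.0 CPM, and Cd79b, with 46.7 ± 17.1 and 18.3 ± 11.6 CPM (SD, n = 6). Their part in the receptor differences was not tested.

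Cxcr6, a receptor of effector and tissue-resident T cells, lies at chr9:123715595-123720872 on the plus strand and overlaps Fyco1 on the opposite strand. Whether counting used strand is not given in the sources used here, so reads of these 2 genes may not be separable. The WT libraries in the same order held 34.9, 34.2, 25.1, 114, 50.6 and 36.2 CPM, and the KI libraries 25.4, 0.620, 6.18, 18.7, 24.4 and 22.2 CPM. Of the KI libraries 5 of 6 lay below every WT library, and KI 1-1 exceeded only WT 1-3. KI 1-2 held 1 read of Cxcr6. The WT mean was 49.1 ± 32.6 CPM and the KI mean 16.2 ± 10.4 CPM (SD, n = 6). The log2 difference was -1.60 (SE 0.55, 95% interval -2.76 to -0.45) with an unadjusted edgeR p of 0.0090 and an edgeR adjusted p of 0.914, so Cxcr6 did not pass over all genes.

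The Cxcr6 differences were -1.54 (SE 0.87) at number 1 and -1.61 (SE 0.47) at number 2, with edgeR adjusted p of 0.618 and 0.594. At number 2 the highest KI value (24.4 CPM) was under the lowest WT value (36.2 CPM), as for 5.83% of tested genes. Summed B cell markers were likewise lower and myeloid markers higher in all KI than in all WT libraries of number 2, and their part was not tested. The test of the difference between the first numbers gave -0.06 (SE 1.04, 95% interval -2.21 to 2.09, edgeR adjusted p 0.995). Between the first numbers Cxcr6 was 21.1 ± 14.4 CPM at number 1 and 44.3 ± 35.9 CPM at number 2 (SD, n = 6), a log2 difference of 1.05 (SE 0.48) that did not pass (edgeR adjusted p 0.141). Without KI 1-1 it was 1.64 and passed (edgeR adjusted p 0.0238).

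**Figure D3:**
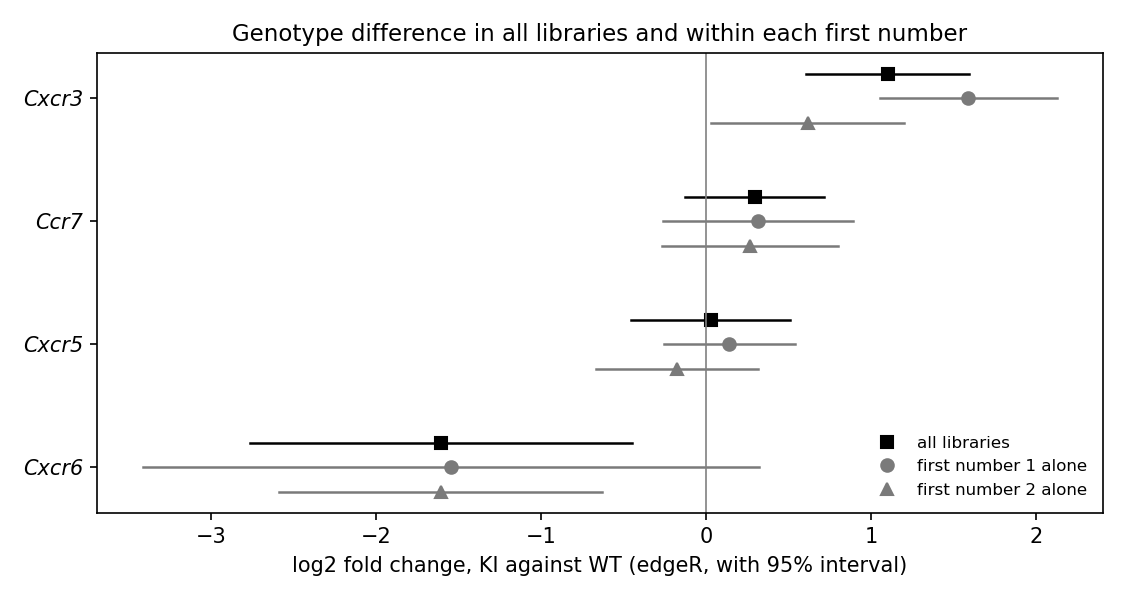
Log2 fold change of KI against WT on the horizontal axis, with a 95% interval derived from edgeR's test statistic. Values are for all libraries (black squares) and for first number 1 (circles) and 2 (triangles) alone. Cxcr3 lies to the right of 0 at 1.10, Cxcr6 to the left at -1.60, and the Ccr7 and Cxcr5 intervals span 0.

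The stretches before the transcription starts of Cxcr3 and Cxcr6 are shown because these receptors had the largest differences between genotypes among the 4 tested, in opposite directions. RefSeq promoter entries (GRCm38.p6) matched 6 of the 8 receptors by symbol, in 7 windows, and each window below is the 250 bases before the start, 5′ to 3′ on the gene's strand. Capitals mark the Runx core, TGTGGT or its complement ACCACA, the letters bound by Runx factors.
Cxcr3, chrX:101734148-101734397, minus strand: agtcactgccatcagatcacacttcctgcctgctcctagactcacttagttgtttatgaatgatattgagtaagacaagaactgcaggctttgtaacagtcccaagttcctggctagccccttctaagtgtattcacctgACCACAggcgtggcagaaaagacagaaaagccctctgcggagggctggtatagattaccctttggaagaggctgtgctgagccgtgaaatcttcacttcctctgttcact
Cxcr6, chr9:123806227-123806476, plus strand: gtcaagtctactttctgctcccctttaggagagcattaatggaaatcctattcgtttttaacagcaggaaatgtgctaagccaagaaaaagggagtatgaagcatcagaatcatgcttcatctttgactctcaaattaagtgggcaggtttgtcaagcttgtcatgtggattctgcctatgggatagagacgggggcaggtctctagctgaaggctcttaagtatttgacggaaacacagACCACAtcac

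Each of these windows held 1 Runx core, with its first base 110 bases before the start in Cxcr3 and 10 bases before it in Cxcr6, and the other 5 windows held none. On both strands, 14% of 32851 RefSeq promoter windows of this length held it. The T-box core GGTGTG, the letters bound by factors such as T-bet and Eomes, was in 0 of the 7 windows and in 16.3% of all windows. The E-box CANNTG, bound by factors such as Ascl2 and E proteins, was in 66.2% of all windows and occurred once each before Cxcr3 and Cxcr6. A match or its lack describes letters in these windows only.

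The balance of Cxcr3 to Cxcr5 was taken within each library as a ratio of FPKM, since FPKM values are per length. As the sort took cells high for CXCR5 in both genotypes, the ratio describes the sorted cells only. In WT 1-1 to WT 2-3 the ratio was 0.379, 0.323, 0.278, 0.660, 1.15 and 0.382, and in KI 1-1 to KI 2-3 it was 0.730, 1.06, 0.941, 1.26, 1.26 and 1.12. By FPKM, Cxcr3 exceeded Cxcr5 in 1 of 6 WT libraries (WT 2-2) and in 4 of 6 KI libraries. By raw counts, not divided by length, the ratio ran from 0.168 in WT 1-3 to 0.765 in KI 2-2 and stayed below 1 in every library. Which receptor is the higher thus rests on the division by length. The groups overlapped through WT 2-2, which lay above 4 of the KI libraries. Mean ratios were 0.528 ± 0.332 in WT and 1.06 ± 0.204 in KI (SD, n = 6).

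On the log2((FPKM + 1)/(FPKM + 1)) scale the KI ratio was higher by 1.16, or 2.24-fold (two-sided exact permutation test over 924 assignments, p 0.0130, and 0.0130 adjusted over 2 comparisons of this ratio). This was almost wholly the Cxcr3 difference, 1.19 on the log2(FPKM + 1) scale, beside 0.03 for Cxcr5. It is thus no second result beside that of Cxcr3, which did not pass in edgeR over all genes. The p of the ratio was not adjusted over genes, and other gene pairs were not tested. Without WT 2-2 the ratio difference was 1.42, and leaving out any 1 library gave 1.02 to 1.42 with exact permutation p from 0.0022, the smallest possible, to 0.0260. At first number 1 alone the difference was 1.45, with all KI above all WT libraries, and the exact permutation p of 0.1 is the smallest that 3 against 3 can give. At first number 2 alone it was 0.87, with overlap (exact permutation p 0.2).

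The same ratio also moved with the first number, a comparison chosen after the values were seen. At number 2 it was higher by 0.72, or 1.65-fold (labels permuted within genotype, 400 assignments, exact permutation p 0.005, the smallest possible, adjusted over 2 comparisons 0.01). Without WT 1-3 it was 0.67 with an exact permutation p of 0.05. Within WT the shift was 1.02 and within KI 0.43, and in each all 3 libraries of number 2 lay above all 3 of number 1. So the lowest ratios belonged to WT libraries of number 1 (0.278 to 0.379) and 3 of the highest 4 to KI libraries of number 2 (1.12 to 1.26). In KI, Cxcr3 and Cxcr5 had like mean levels, 172.0 ± 40.2 FPKM and 171.9 ± 65.7 FPKM, against 79.3 ± 35.2 FPKM and 161 ± 37.1 FPKM in WT (SD, n = 6). Between first numbers 1 and 2 the means were 133 ± 81.5 and 118 ± 35.3 FPKM for Cxcr3, and 205 ± 40.9 and 129 ± 25.0 FPKM for Cxcr5 (SD, n = 6).

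**Figure D4:**
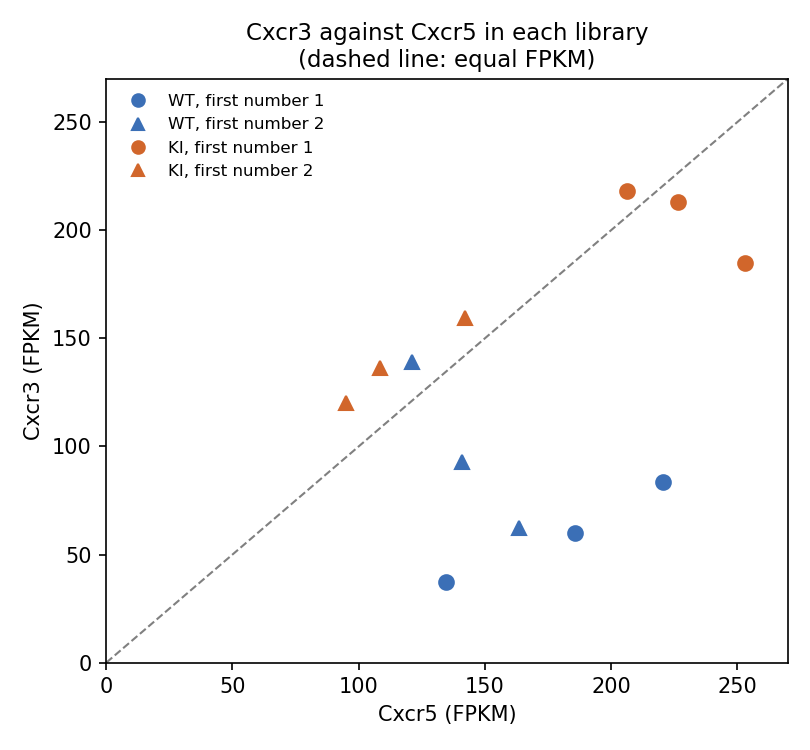
Cxcr3 FPKM on the vertical axis against Cxcr5 FPKM on the horizontal axis, 1 point per library, with a dashed line where both are equal. The 3 KI libraries of first number 2, KI 1-2 and WT 2-2 lie above the line, and the 3 WT libraries of first number 1 lie farthest below it.

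The 4 receptors below the filter were described by raw counts and compared by two-sided exact permutation tests on log2(CPM + 1). A floor of 3 counts corresponds to 1.67 CPM in the deepest library and 4.18 CPM in the shallowest, for counting error only, and amplified reads are not independent molecules. Between the genotypes 0 of 4 differed, with exact permutation p of 0.506 for Cxcr4, 0.827 for Ccr2, 0.0866 for Ccr4 and 1 for Ccr6, or from 0.346 to 1 adjusted over the 4 tests.

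Cxcr4, which draws germinal centre cells toward the dark zone (chr1:130484776-130488870, minus strand), had 1, 3, 0, 10, 1 and 4 counts in WT 1-1 to WT 2-3 and 2, 3, 3, 3, 3 and 8 counts in KI 1-1 to KI 2-3. Sums of 19 and 22 counts were not distinguishable at this depth. Ccr4, found on type 2 helper and regulatory T cells (chr9:114399434-114405662, minus strand), had 9 counts in WT, 6 of them in WT 2-3, and 2 in KI. Its difference of -0.76 on the log2(CPM + 1) scale had an unadjusted p under 0.05 when WT 2-1 or WT 2-2, each with 0 counts, was left out (-0.95, exact permutation p 0.0325, or 0.130 adjusted over the 4 tests). Ccr6, found on type 17 helper cells and B cells (chr17:8429077-8449992, plus strand), had 6 counts in WT, 5 of them in WT 2-3, and 5 in KI.

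Ccr2, a receptor of monocytes and effector T cells (chr9:124016689-124028296, plus strand), divided the libraries by first number. All 6 libraries of number 1 held 0 counts. At number 2 the counts were 30, 5 and 17 in WT 2-1 to WT 2-3, and 15, 26 and 2 in KI 2-1 to KI 2-3. Every library of number 2 thus lay above every library of number 1 in measured values, in both genotypes. KI 2-3, at 1.38 CPM, lay under its own 3-count floor of 2.12 CPM. Both KI 2-3 and WT 2-2 (2.81 CPM) lay under the floor of 4.18 CPM in WT 1-3, so counting error alone does not set them apart from it. Over the 6 libraries of each number, 95 counts against 0 gave 10.6 CPM against a limit of 0.401 CPM (3 counts over the group). For counting error only, that is at least 26.3-fold higher at number 2. Spread between libraries and amplification do not enter this limit. The exact permutation p was 0.0022, the smallest possible, for a comparison of the 4 receptors chosen after the values were seen. In the edgeR fit without a filter the adjusted p over all genes was 2.8e-05, and that fit called 1336 of 14480 genes. Among 14480 genes with any count, 5 (0.0345%) had 0 counts in all libraries of number 1 and a count in all of number 2. This pattern is that of Ccr2 itself, which is among the 5, and is narrower than a lack of overlap. The other sparse receptors did not separate so, with 12 and 29 counts of Cxcr4, 4 and 7 of Ccr4 and 4 and 7 of Ccr6 at numbers 1 and 2 (exact permutation p from 0.141 to 0.740).

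The CD8 and NK marker list named above was also higher at number 2, where Ccr2 was counted. Of its 12 genes 3 were tested and all 3 passed, beside 16% of all tested genes. Nkg7 had a log2 difference of 2.09, Klrb1c 1.78 and Cd8b1 1.57 (edgeR adjusted p 4.1e-05, 0.0226 and 0.0332). Myeloid markers, whose cells also carry Ccr2, overlapped between the numbers, at 1.24 to 225 CPM with a median of 11.6 at number 1 and 2.25 to 51.9 CPM with a median of 28.4 at number 2. The highest sum of number 1 was that of WT 1-3, and the other 5 libraries of that number ran from 1.24 to 14.4 CPM. Within KI the sums separated in the direction of Ccr2, at 1.24 to 14.4 CPM and 36.2 to 51.9 CPM. Within WT, where Ccr2 was also counted only at number 2, the sums overlapped. They ran there from 10.6 to 225 CPM at number 1 and from 2.25 to 20.7 CPM at number 2, with medians of 12.6 and 11.3 CPM. Lyz2 and Csf1r, the most abundant myeloid genes, averaged 18.8 and 21.2 CPM at number 1 and 17.1 and 4.73 CPM at number 2. Without WT 1-3 the means at number 1 were 2.5 CPM for Lyz2 and 3.28 CPM for Csf1r, both below those at number 2. The part of other cell types in the Ccr2 counts was not tested.

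**Figure D5:**
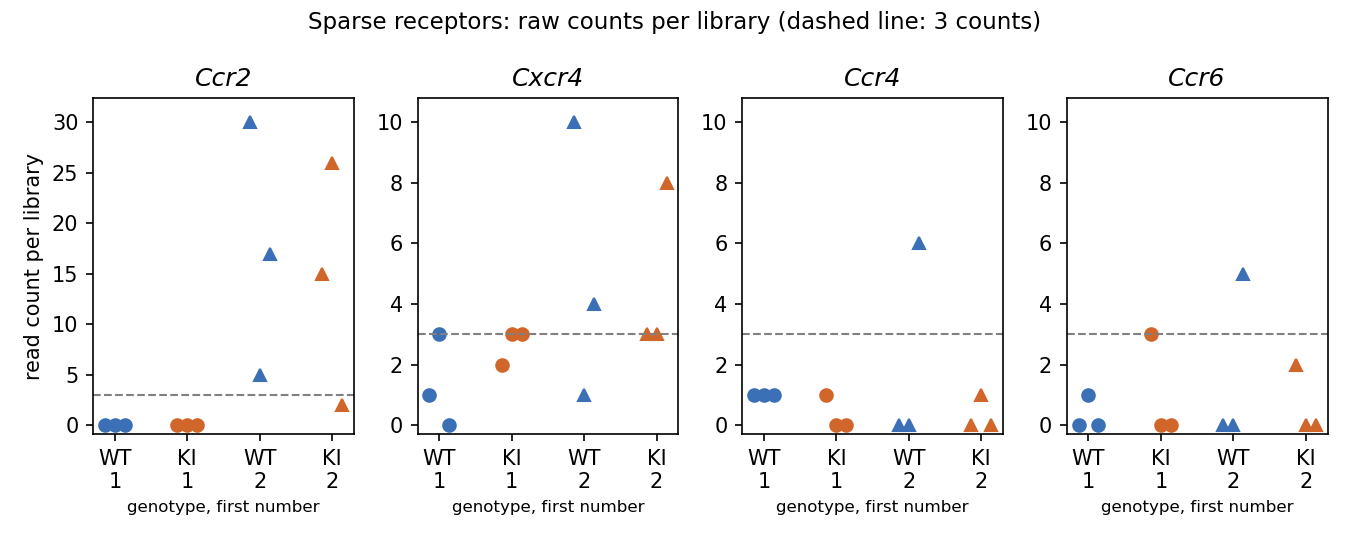
Raw read counts per library on the vertical axis for Ccr2, Cxcr4, Ccr4 and Ccr6, by genotype and first number, with a dashed line at 3 counts. Ccr2 is at 0 in the 6 libraries of first number 1 and reaches 30 at first number 2, while Cxcr4, Ccr4 and Ccr6 stay at 10 counts or fewer.

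Of 16 other chemokine receptors listed, 0 passed the filter on low counts and 5 had no count at all. Cxcr2, a receptor of neutrophils, averaged 0.416 FPKM. Ligands of the 8 receptors were as sparse, with 0 of 17 passing the filter and 11 without a count; Cxcl10, a CXCR3 ligand, had 114 counts and Ccl8, a CCR2 ligand, had 14 over all 12 libraries.

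Genes that carry the receptor signal or end it were better covered, with 21 of 26 tested. None was called between the genotypes, and their median log2 fold change was 0.03, beside 0.02 over all tested genes. Pik3r5, a regulatory subunit of the phosphoinositide 3-kinase activated by G proteins, was the 1 gene of the list with an unadjusted edgeR p under 0.05, at -1.27 (edgeR adjusted p 0.917). By first number 4 rose and 4 fell at number 2. The higher ones were Gnai3, a Gi subunit, at 1.73, the GTPases Rap1b at 1.46 and Rap1a at 1.35, and Rac1 at 0.58 (edgeR adjusted p from 1.1e-04 to 0.0183). Those lower were Tpst2, which sulfates tyrosines of chemokine receptors, at -0.86, the receptor kinases Grk2 at -0.83 and Grk6 at -0.51, and Gng5, a G protein gamma subunit, at -0.53 (edgeR adjusted p from 5.0e-04 to 0.0371). With 8 of 21 called beside 16% of all tested genes, the list's median log2 difference was 0.01, beside 0.01 over all genes. DESeq2 called 0 genes of this list between the genotypes and 8 by first number.

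Transcription factors tied to these receptors were tested for 15 of 18, and 0 passed between the genotypes, with a median log2 fold change of -0.13. DESeq2 also called 0 of them, and 2 had an unadjusted edgeR p under 0.05, beside 5.4% of all tested genes. Eomes, a T-box factor, had -1.85 (SE 0.73) and Id3, an inhibitor of E proteins, had 0.51 (SE 0.19), both with an edgeR adjusted p of 0.914. By first number, where 16% of all tested genes passed, Eomes (2.11) and the E protein Tcf12 (1.76) were higher at number 2. Batf (-1.12) and Tox2 (-1.30), both active in Tfh cells, were lower (edgeR adjusted p of the 4 genes from 0.0013 to 0.0207). Other Tfh genes went the other way. In the T and Tfh marker list, which also holds Tox2, 4 of 15 tested genes passed as higher at number 2 and 1 as lower. The higher ones were Slamf6 (0.87), Icos (0.76), Sh2d1a (0.74) and Cd28 (0.50), with edgeR adjusted p from 7.9e-04 to 0.0237. Eomes is also expressed by CD8 and NK cells, whose summed markers, mostly Nkg7, followed the first number. Their part was not tested.

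Likeness to the 3 receptors with a mean count of at least 50 was described by Pearson's r of log2 CPM over the 12 libraries, after the mean of each first number was subtracted, among 3781 candidate genes. These points share their libraries, scaling and any genotype difference, and r is given without a test. Nearest to Cxcr3 were Bzrap1 (r 0.91), Tmem149 (0.90) and Lrmp (0.90), with genotype log2 differences of 0.90, 0.54 and 0.27 that did not pass (edgeR adjusted p 0.695, 0.919 and 0.938). Nearest to Cxcr5 were Fam96a (0.87), Grinl1a (0.85) and Fam173a (0.83), and nearest to Ccr7 were Gak (0.91) and Luc7l (0.87). Among the receptors themselves r was 0.52 for Cxcr3 with Ccr7, 0.26 for Cxcr5 with Ccr7 and 0.09 for Cxcr3 with Cxcr5. With Pdcd1, r was -0.68 for Cxcr3, -0.40 for Ccr7 and 0.14 for Cxcr5.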

How the data were processed

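Per the labels' protocols, polyadenylated RNA of sorted pools was amplified and made into Illumina libraries. The authors deposited read counts per gene symbol and FPKM values for all 12 libraries. Per the submitters' processing notes, mm9, CASAVA, TopHat2, Cufflinks, HTSeq and DESeq2 were used. Their roles and settings, the gene models and the handling of strand are not given in the sources used here. The deposited counts hold 25793 genes and 5 summary entries for unassigned reads, which were left out. Between 26.7% and 43.8% of reads were not uniquely aligned. No pair of libraries of a genotype agreed within sampling noise (chi-square per degree of freedom 8.58 to 37.0 over 30 pairs).

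Counts were tested in R 4.3.3 with edgeR 4.0.16 (filterByExpr, TMM, glmQLFit and glmQLFTest at their defaults), with genotype alone, with genotype and first number, and with their interaction. CPM values are counts scaled by the TMM-adjusted total. DESeq2 1.42.0 and limma 3.58.1 were alternatives. The FPKM values of the authors gave levels between genes and the ratio, with a pseudocount of 1. All receptors, Pdcd1, the called genes of each list (otherwise its 2 most abundant) and the 3 nearest genes by correlation were named by rule, except that some genes it names are not reported here; Ms4a1, Pik3r5, Eomes and Id3 between the genotypes, and the comparisons by first number of the sparse receptors and the ratio, were chosen after their values were seen. The receptors and gene lists were chosen with earlier results of these data known. Gene positions come from GENCODE vM1 on NCBIM37, the same assembly as mm9. Scripts were tested on simulated data.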

Additional observations from a re-analysis of the deposited data

Results flagged for a closer look

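Among 18 sets of 6 libraries (8 receptors and the Cxcr3 to Cxcr5 ratio, in WT and in KI), 2 had a library whose gap to its nearest neighbour exceeded 0.625 of the group's range, and chance gives about 1 in 20. Cxcr6 stood at 114 CPM (181 counts) in WT 2-1, against 50.6 CPM in the next WT library. Without WT 2-1 the KI to WT difference of Cxcr6 was -1.16 on the log2 scale (edgeR adjusted p 0.964). Ccr6 stood at 3.77 CPM in WT 2-3, from 5 counts, against 1.18 CPM in the next WT library.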

How the results depend on the processing

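Depth limited the 4 sparse receptors, and with 3 libraries per genotype and first number no exact permutation p can fall under 0.1. Cxcr3 was higher and Cxcr6 lower in KI under every alternative run, with log2 values of 0.62 to 1.59 and -2.16 to -1.16 (Cxcr6 was not tested at a mean of at least 50 counts). Cxcr3 passed with DESeq2, with DESeq2 and the block, and within first number 1. The number of genes called between the genotypes was 2, and it was 11 with DESeq2 (5 higher), 4 without a filter, 1 with limma-voom, 1 in first number 2 alone (0 higher), 0 with summed libraries (143 unadjusted), 0 on FPKM with either pseudocount (399 and 401 unadjusted), and 0 to 2 when 1 library was left out. For the first number, 1208 genes became 381 in WT alone, 359 in KI alone and 751 (without KI 2-2) to 1252 with 1 library left out. The interaction gave 0 genes, 7 with DESeq2 and 0 to 24 with 1 library left out.

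The title numbers shared by both genotypes did not meet the criterion for pairing. Libraries with both numbers alike had deviations correlated at 0.0828 to 0.258, and 2 of 6 WT libraries correlated best with their own pair. A replicate block of the first number gave 4 genes (3 higher), and 34 with DESeq2 and that block, chosen after seeing the data. Cxcr3 then had an edgeR adjusted p of 0.0570 and a DESeq2 adjusted p of 0.0016. The Cxcr5 difference of 0.03 turned to -0.0135 with that block, -0.0160 with a block of both numbers, -0.0249 with DESeq2 and the block, -0.0054 with limma-voom, -0.0075 with a mean of at least 50 counts, -0.17 in first number 2 alone and -9.6e-04 with summed libraries, and ran from -0.0652 to 0.152 with 1 library left out. With labels permuted within first number, 0 sparse receptors had an unadjusted p under 0.05.

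The Cxcr3 to Cxcr5 ratio kept its direction, at 1.45 in first number 1 and 0.87 in first number 2, where no p under 0.05 is possible, and with labels permuted within the first number as a replicate block its exact permutation p was 0.01 and by 6 pairs of both numbers 0.03125. Neighbouring levels that differed were 0 of 7 in WT alone and 0 in KI alone, where 6 libraries limit the test. The Cxcr3 difference by first number was -0.0153 without a filter, -0.47 in KI alone and -0.192 to 0.124 with 1 library left out. Sparse receptors with an unadjusted exact permutation p under 0.05 between genotypes were 0 to 1 with 1 library left out, and 0 after adjustment over the 4 tests. Ccr2 then ran from -0.666 to 0.410 and Ccr6 from -0.255 to 0.332, and Ccr6 was 0.0116 with a pseudocount of 0.1. The cause was not tested.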
